A study of Homo sapiens with 15 samples.

Results

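The enzymes and carriers of glucose, glycogen and phosphocreatine metabolism were followed through the differentiation of human neuromesodermal progenitors, with most attention to families in which stem cells, neurons and muscle use different genes for the same reaction. The members were a list of 37 genes given by symbol, and all 37 were among the 17999 gene symbols of the deposited table. They cover glucose carriers, each step of glycolysis, lactate export, pyruvate dehydrogenase kinases, glycogen metabolism, creatine kinases, and single genes of glycerol phosphate and adenylate metabolism.

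The study measured messenger RNA as FPKM (fragments mapped to a gene, scaled to its transcript length and to the mapped fragments of the library), so levels of different genes can be compared per length, in 15 cultures of the embryonic stem cell lines H1 and HUES9. All cultures were labelled wild type. Self-renewing neuromesodermal progenitors (srNMPs), cells that can form spinal cord neurons or skeletal muscle, were sampled at passage 8 and passage 25. Neural induction gave neuron progenitors after 7 days under 2 conditions labelled RABC and RASS, names that the labels do not spell out, and then dorsal and ventral neurons. Each of these 6 groups held 1 library of H1 and 1 of HUES9. The remaining 3 groups were HUES9 alone, with 1 library each: embryonic stem cells (ESCs) that received no induction, and cultures at day 40 and day 50 of skeletal muscle induction. Replicates are thus cell lines, the labels name no further independent cultures, and p-values measure the spread between these libraries. In the main test each muscle day was a group of 1 library, with no spread of its own. Such groups are assumed to vary like the groups with 2 libraries. Below, srNMPs, progenitors and neurons stand for 4 libraries each, muscle for 2 and ESCs for 1.

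The labelled states were checked against marker genes. Summed FPKM of 8 neuron markers was 1306 to 2342 in the neurons, against 206 to 450 in the srNMPs. Of 7 tested astrocyte and radial glia markers, 3 were called higher and 1 lower in neurons than in srNMPs (median log2 change 0.78), and 5 higher and none lower than in progenitors (median 1.64). Their summed FPKM was 169 to 290 in neurons, 185 to 368 in srNMPs and 94.4 to 321 in progenitors, and their part in the neuron results below was not tested. Summed FPKM of 10 skeletal muscle markers was 5313 and 8091 in the muscle cultures and at most 13.9 in the srNMPs. The muscle cultures also carried all 8 fibroblast and smooth muscle markers, with summed FPKM of 11639 and 18815, against 25.1 to 72.3 in the srNMPs; the part of these cells in any muscle result below was not tested. Of 7 cardiac markers, 2 reached 1 FPKM in muscle, and all 7 together summed to 451 and 751 FPKM. TNNT2, which embryonic skeletal muscle also expresses, made up 449 and 749 FPKM of this, and NPPB and MYL7 were listed at 0. Summed FPKM of 6 proliferation markers was 627 to 798 in the srNMPs, 107 to 509 in the neurons and 95.9 to 102 in muscle. In bulk libraries, fewer cells of a type and less RNA per cell cannot be told apart.

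As background, glycolysis splits glucose into pyruvate, which is either reduced to lactate and exported or oxidised in mitochondria. Many of its enzymes exist as isoforms encoded by separate genes, among which adult brain and adult muscle have characteristic forms: ENO2 and ALDOC are known from neurons and brain, ENO3, PGAM2, PYGM and CKM from striated muscle. Glycogen is the stored form of glucose, and creatine kinase moves a phosphate between creatine and ATP, which buffers ATP in cells with sudden demand. Proliferating stem cells are known for high glycolytic flux, and many glycolytic genes are induced when oxygen is low.

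The heat map of levels shows the members as a set. Together they took 1.55% to 2.03% of summed FPKM in the srNMPs, 1.60% to 2.15% in the progenitors, 1.00% to 1.59% in the neurons and 0.698% and 0.844% in muscle, and the ESC library had 1.82%. The muscle values lay below all others and the neuron range overlapped that of the srNMPs at its upper end. GAPDH alone, the glyceraldehyde phosphate dehydrogenase of central glycolysis, made up 29.8% to 47.7% of the members' sum. Of the members, 24 reached 1 FPKM in all 15 libraries. AMPD1 reached it only in muscle, and PDK4 and GPD1 only in neurons, so these genes had to differ between states to be tested.

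**Figure D1:**
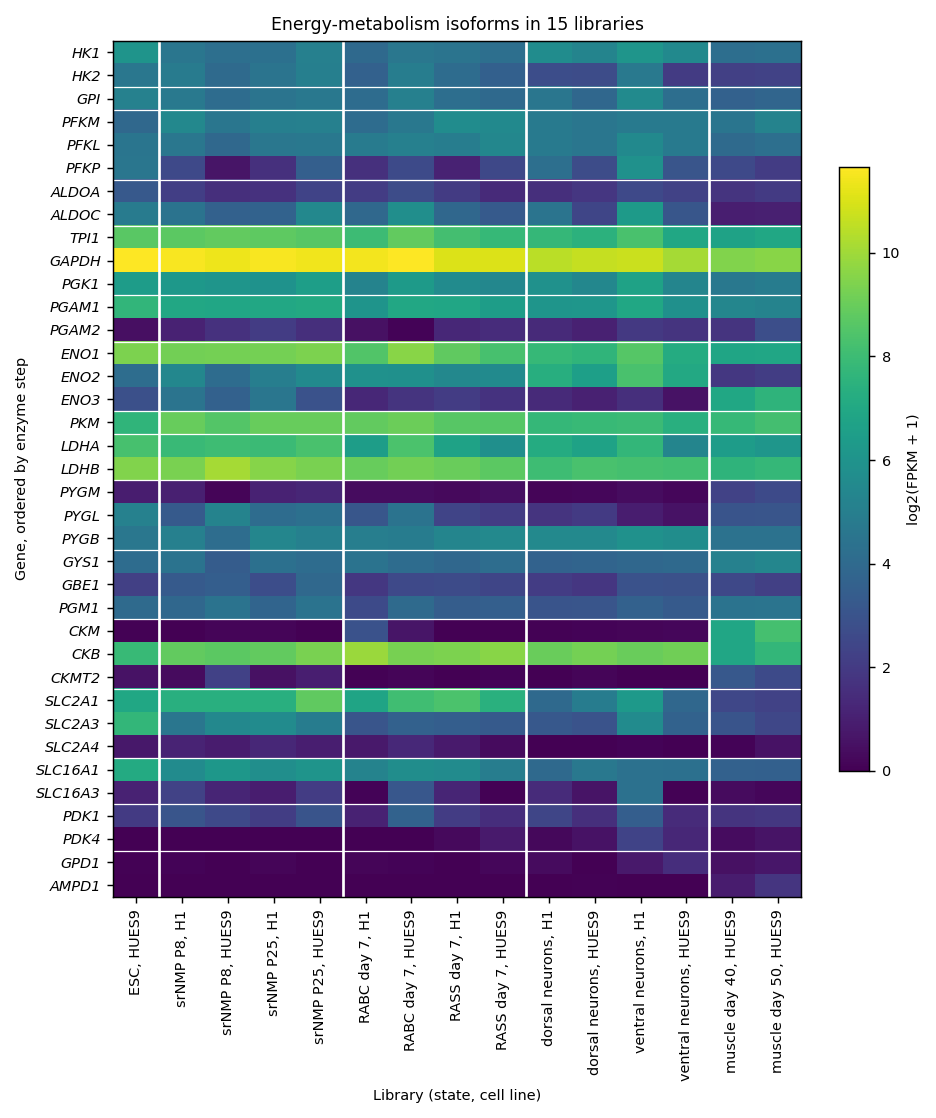
Levels of the 37 genes, as log2(FPKM + 1), in 15 libraries, with genes ordered by step and libraries by state; white lines separate families and states. GAPDH is the brightest row, CKM is bright only in the muscle columns, and SLC2A1 is dark there.

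Changes were tested with limma on log2(FPKM + 1), fitted to 14129 genes with a term for the cell line, and a gene was called at a Benjamini-Hochberg adjusted p under 0.05 over all genes. From srNMPs to neurons, 20 of 37 members were called, 5 higher and 15 lower, where 52.1% of all tested genes were called. From srNMPs to muscle, 21 were called, 7 higher and 14 lower, against 49.8% of all genes. Between muscle and neurons, 16 were called, 9 higher in muscle and 7 lower, against 46.5%. From progenitors to neurons, 12 were called, 5 higher and 7 lower, against 37.8%. The srNMPs differed from the ESC library in 4 members, 2 higher and 2 lower, against 16.7% of all genes; the ESC state is 1 library with no spread of its own, which is assumed to vary like the other groups, and none of these 4 calls held with only these states fitted. From srNMPs to the day 7 progenitors, 1 member was called, against 3.43%. The members called were 54.1% and 56.8% of all members in the first 2 comparisons and 43.2%, 32.4%, 10.8% and 2.70% in the others. These shares were near those of all genes, so the counts alone say little about the members. The counts include PDK4 and GPD1 as higher in neurons and AMPD1 as higher in muscle. Each of these was tested only because it reached 1 FPKM there. SLC2A4, called lower in neurons and in muscle than in srNMPs, reached 1 FPKM only in srNMP and progenitor libraries.

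The members' median log2 change was -0.48 from srNMPs to neurons and -0.79 from srNMPs to muscle, and the medians of all genes were 0.05 and -0.22. Summed FPKM was 344965 to 421109 in the srNMPs and 290306 to 305957 in neurons and muscle. With libraries scaled to equal totals, the medians of all genes became 0.29 and -0.01, and called genes went from 4076 higher and 3279 lower to 5404 and 2086 in neurons, and from 2566 and 4468 to 3024 and 3092 in muscle. Equal totals also moved the split from 245 and 239 to 272 and 167 between progenitors and srNMPs, and from 3014 and 2329 to 3559 and 1800 between neurons and progenitors. Quantile normalization gave 3238 and 3991 in neurons against srNMPs, 2566 and 2976 in neurons against progenitors, and 2742 and 3195 in place of 2060 and 4512 in muscle against neurons. No member that was called changed direction under that scaling or under quantile normalization.

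**Figure D2:**
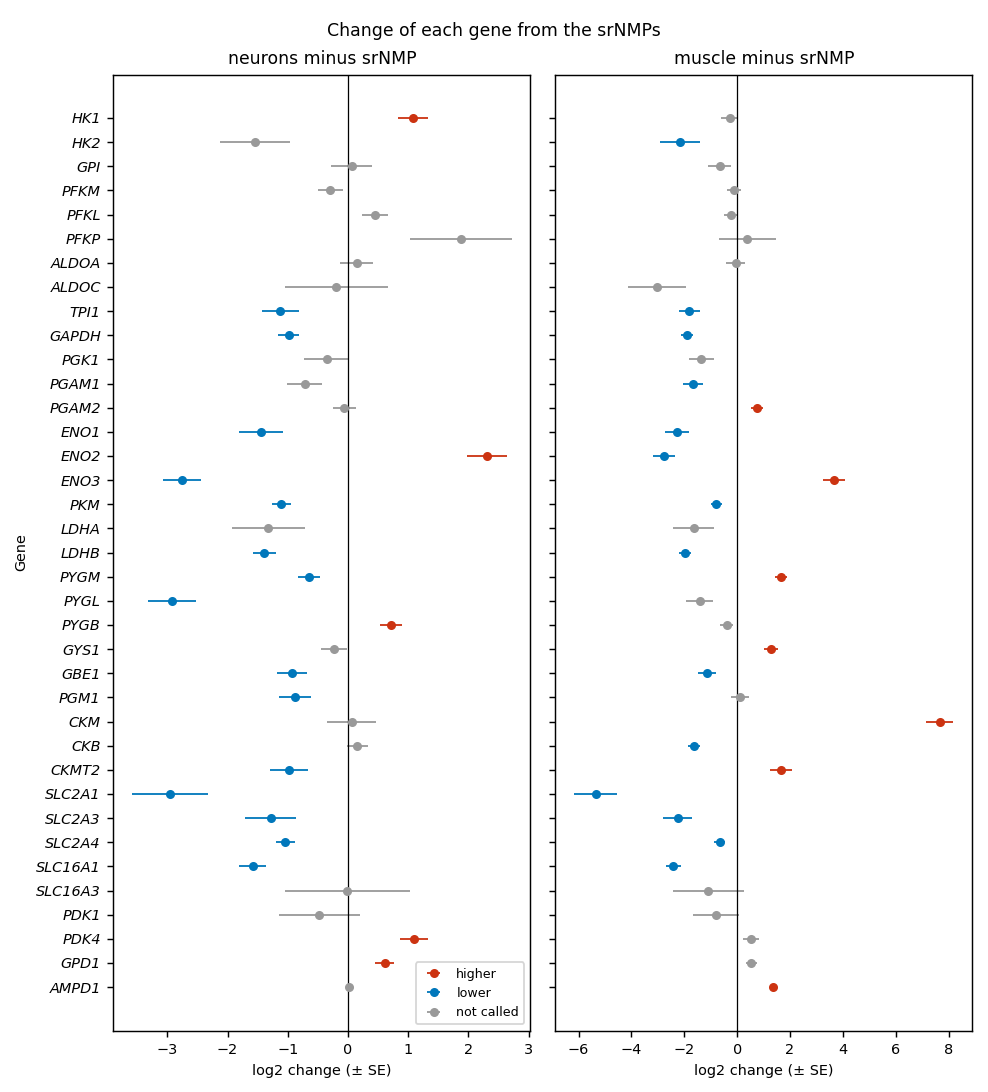
The log2 change (± SE) of each gene from srNMPs to neurons (left) and to muscle (right), with called genes in red (higher) and blue (lower) and the others in grey. ENO2 and ENO3 lie on opposite sides in the 2 panels, SLC2A1 is the lowest point of each panel and CKM the highest on the right.

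Of the glucose carriers, SLC2A1 and SLC2A3 had their lowest means in muscle. SLC2A1, the broadly expressed basal glucose carrier, was at 164, 163, 161 and 443 FPKM in the srNMPs (passage 8 H1 and HUES9, then passage 25 H1 and HUES9), and at 123 in the ESCs and 113 to 332 in the progenitors. It was at 14.7 and 28.7 in the dorsal and at 77.1 and 14.0 in the ventral neurons (H1 first, as in all such pairs), and at 4.59 and 3.93 in muscle. No neuron or muscle library reached the level of any srNMP library. The log2 change was -2.95 ± 0.63 (SE, limma adjusted p = 0.00722) from srNMPs to neurons and -5.34 ± 0.81 (adjusted p = 0.00168) from srNMPs to muscle.

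SLC2A3, the high-affinity carrier known from neurons, was highest in the ESCs, at 208 FPKM. The srNMPs had 23.0, 43.0, 48.2 and 29.1 FPKM, the progenitors 7.36 to 11.2, and muscle 7.22 and 4.52. Among neurons the H1 ventral library stood apart at 47.6 FPKM, while the other neuron libraries had 6.81 to 11.8, so neurons and srNMPs overlapped. The change to neurons, by -1.28 ± 0.42 on the log2 scale (adjusted p = 0.038), ended with any of 6 of the 8 libraries left out (adjusted p 0.0642 to 0.124). The log2 change was -2.26 ± 0.54 in muscle (adjusted p = 0.012; 0.0561 without the day 50 library) and -2.70 ± 0.69 from ESCs to srNMPs (adjusted p = 0.0391; 0.0604 and 0.104 without the H1 and the HUES9 passage 25 library). As a share of the summed FPKM of SLC2A1, SLC2A3 and SLC2A4, SLC2A3 held 62.7% in the ESCs, 6.15% to 22.9% in the srNMPs, 19.2% to 45.8% in the neurons and 60.7% and 50.5% in muscle. SLC2A4, the insulin-responsive carrier of adult muscle and fat, was at most 1.52 FPKM in any library. It was at 0.863 to 1.44 in the srNMPs, at most 0.0866 in the neurons and at 0.0854 and 0.505 in muscle. Both muscle values lay below every srNMP library. It fell in neurons by 1.04 ± 0.16 on the log2 scale (limma adjusted p = 0.00192, and 0.0849 with HUES9 alone). SLC2A4 entered the test only through 3 srNMP and progenitor libraries at 1 FPKM or more, the states where it was highest. This p-value is therefore not taken as support for a difference.

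Hexokinases, which trap glucose in the cell, shifted toward HK1 in the neurons. HK1 was at 49.2 and 37.5 FPKM in dorsal and 66.9 and 45.5 in ventral neurons, against 17.9 to 32.8 in the srNMPs and 14.9 to 23.8 in the progenitors. The neuron range lay above both. HK1 rose from srNMPs to neurons by a log2 change of 1.09 ± 0.25 (adjusted p = 0.00981) and from progenitors to neurons by 1.29 ± 0.25 (adjusted p = 0.00709); with HUES9 libraries alone the adjusted p-values were 0.115 in both. HK2, the inducible form, was at 5.80, 5.47, 25.2 and 3.07 FPKM in the neurons and 15.5 to 31.7 in the srNMPs, and the H1 ventral library again overlapped the srNMPs. In muscle HK2 was at 3.58 and 3.91 FPKM, a log2 change of -2.17 ± 0.75 (adjusted p = 0.0462), a call that ended when any of the 6 libraries was left out (adjusted p 0.0541 to 0.149). HK1 held 85.8% ± 9.13 of the 2 hexokinases in neurons and 49.1% ± 3.82 in srNMPs (SD, n = 4 each, exact permutation test, two-sided p = 0.0286, 0.0571 after adjustment over 8 shares). ESCs had 73.5% and muscle 83.0% and 82.8%. Outside the neurons HK1 itself was highest in the ESCs, at 65.1 FPKM, and lower in srNMPs by a log2 change of -1.50 ± 0.41 (adjusted p = 0.0471; 0.0542 to 0.0895 with any of 3 srNMP libraries left out).

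The share test compared 8 isoform shares between 4 neuron and 4 srNMP libraries, and 0.0286 is the smallest p it can give. It treats the libraries as independent and ignores cell line and group, although each set of 4 holds only the lines H1 and HUES9. The shares of HK1, ENO2, PYGB and PFKM reached it, which means that their groups did not overlap, and none passed 0.05 after adjustment. The other 4 shares, of SLC2A3 (p = 0.0857), ALDOC (p = 0.429), CKB (p = 0.514) and LDHB (p = 0.743), overlapped in the same exact permutation test.

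**Figure D3:**
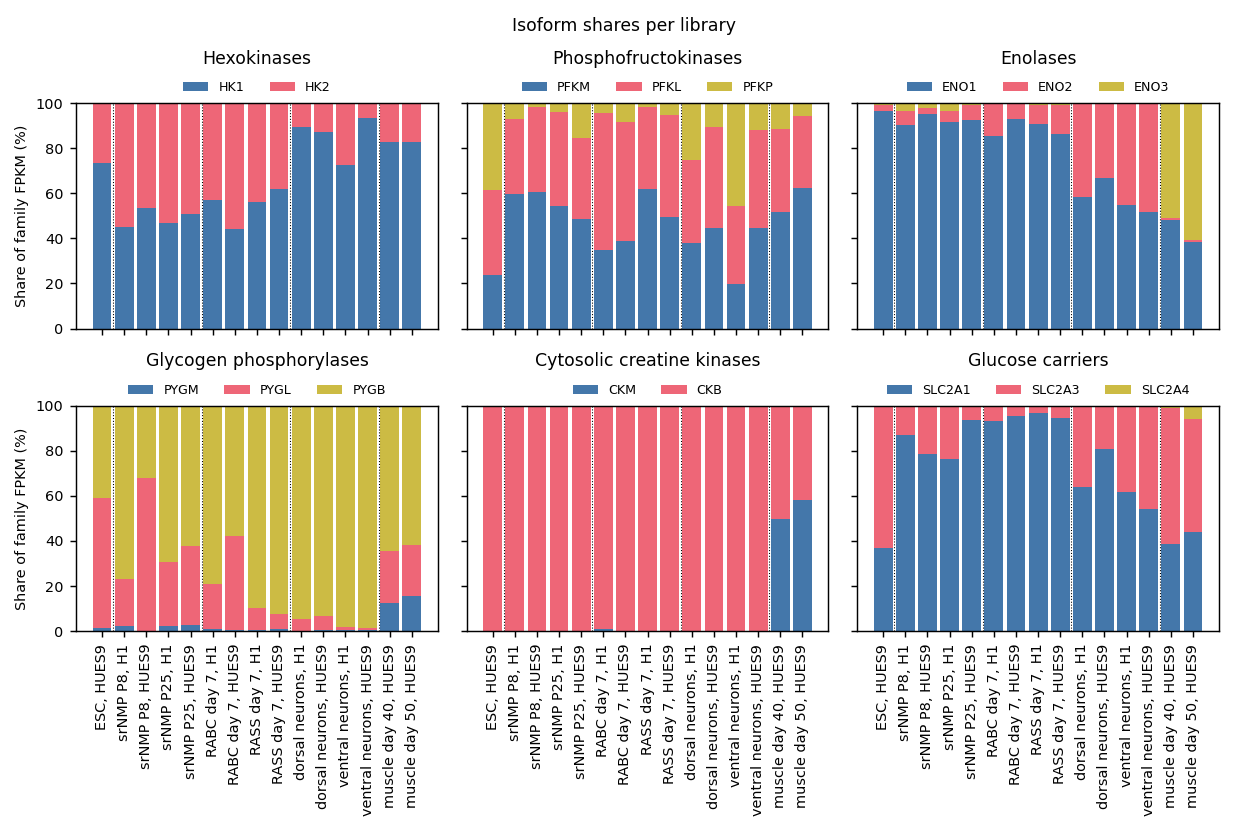
Share of each isoform in the summed FPKM of its family (percent) in each of 15 libraries for 6 families; dotted lines separate the states. ENO2 takes a wide band only in neurons, ENO3 and CKM appear in muscle, and PYGB fills most of the bar in neurons and RASS progenitors.

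Phosphofructokinase commits sugar to glycolysis and has a muscle (PFKM), a liver (PFKL) and a platelet (PFKP) form. None of the 3 was called in any comparison. PFKM was at 23.2 to 42.4 FPKM in the srNMPs, 23.1 to 27.2 in the neurons and 21.8 and 36.0 in muscle, so the muscle form was not confined to muscle. PFKP was at 18.0 and 5.46 FPKM in dorsal and 59.5 and 7.33 in ventral neurons, against 0.592 to 10.5 in the srNMPs; the 2 H1 neuron libraries held the highest neuron values. The log2 change of PFKP was 1.87 ± 0.84 (adjusted p = 0.101). The share of PFKM was 55.9% ± 5.51 in srNMPs and 36.8% ± 11.7 in neurons (SD, n = 4 each), without overlap (exact permutation p = 0.0286, adjusted 0.0571). The difference was -19.1 percentage points with all libraries and -13.5 without the H1 ventral library.

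Aldolase results are limited by the locus. ALDOA, the form of muscle and most tissues, was listed at only 1.59 to 8.44 FPKM across all 15 libraries, with 2.36 and 2.94 in muscle. GENCODE release 29 places exons of AC093512.2, a second protein-coding gene, over those of ALDOA on the same strand, and the table lists LOC112694756 at 0.0782 to 1.35 FPKM; how fragments shared by overlapping genes were counted is not given in the sources used here, so the level of ALDOA is uncertain. ALDOC, the brain form, was at 11.4 to 42.1 FPKM in the srNMPs and at 21.5, 4.46, 79.7 and 7.66 in the neurons. The neuron values lay both above and below the srNMP range, and no change was called (log2 change -0.19 ± 0.85, adjusted p = 0.87). In muscle ALDOC was at 0.969 and 1.02 FPKM, below every srNMP library, with a log2 change of -3.04 ± 1.10 (adjusted p = 0.0533).

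In lower glycolysis, GAPDH, TPI1 and PGAM1 were lower in muscle than in srNMPs, and GAPDH and TPI1 also in neurons. GAPDH was at 2629 to 2991 FPKM in the srNMPs, at 1419, 1567, 1682 and 1104 in the neurons and at 704 and 768 in muscle. These 3 ranges did not overlap. GAPDH fell by 0.99 ± 0.18 on the log2 scale in neurons (adjusted p = 0.00339) and by 1.89 ± 0.23 in muscle (adjusted p = 0.000586). The neuron call ended under quantile normalization, with a log2 change of -0.25 (adjusted p = 0.264), and with HUES9 alone (adjusted p = 0.0781), so it depends on how libraries are scaled.

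TPI1, triose phosphate isomerase, was at 397 to 460 FPKM in srNMPs, 122 to 313 in neurons and 103 and 124 in muscle. It fell in muscle by 1.81 ± 0.40 on the log2 scale (adjusted p = 0.00834). The fall in neurons, by 1.12 ± 0.31 (adjusted p = 0.0205), ended with any of 5 of the 8 libraries left out (adjusted p 0.0574 to 0.0655) and under equal totals and quantile normalization. PGK1, which makes the first ATP of the pathway, was at 60.7 to 91.0 FPKM in srNMPs and 24.7 at day 40 of muscle induction and was not called in muscle (adjusted p = 0.0531). PGAM1, the general phosphoglycerate mutase, was at 117 to 134 FPKM in srNMPs and 39.4 and 36.2 in muscle, a fall by 1.66 ± 0.38 on the log2 scale (adjusted p = 0.00939). GPI, the isomerase after hexokinase, was at 16.5 to 25.5 FPKM in srNMPs and 11.1 and 13.0 in muscle and was called in no comparison.

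PGAM2, the muscle mutase, stayed low: 2.38 FPKM at day 40 and 6.08 at day 50 of muscle induction, against 1.19 to 3.22 in srNMPs. The groups overlapped, and the called change of 0.74 ± 0.24 (adjusted p = 0.0366) ended without the day 50 library (log2 change 0.21, adjusted p = 0.633) and without the HUES9 passage 25 library (adjusted p = 0.127). In both muscle cultures PGAM1 remained the main form, with PGAM2 at 5.68% and 14.4% of their sum.

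Enolase, which forms phosphoenolpyruvate, was represented by ENO2 beside ENO1 in neurons and by ENO3 beside ENO1 in muscle. ENO1, the general form, was at 577 to 667 FPKM in srNMPs, at 224, 195, 387 and 143 in neurons and at 116 and 120 in muscle. ENO2, the neuronal form, was at 40.9, 16.5, 30.4 and 46.2 FPKM in srNMPs, 42.5 to 59.3 in progenitors, 158, 95.2, 319 and 132 in neurons and 2.74 and 3.39 in muscle. ENO3, the muscle form, was at 21.3, 11.3, 23.2 and 6.61 FPKM in srNMPs, 1.43 to 3.16 in progenitors, 1.64, 1.08, 2.01 and 0.475 in neurons and 122 and 190 in muscle.

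Every neuron library thus had more ENO2 than every srNMP library, and both muscle libraries had less. ENO2 rose in neurons by a log2 change of 2.31 ± 0.33 (5.26-fold in mean FPKM, adjusted p = 0.00143) and fell in muscle by 2.78 ± 0.43 (adjusted p = 0.00173). ENO3 did the reverse, rising in muscle by 3.67 ± 0.41 (9.98-fold, adjusted p = 0.000439) and falling in neurons by 2.75 ± 0.32 (adjusted p = 0.000647). Between muscle and neurons ENO3 was higher by 6.42 ± 0.41 (adjusted p = 2.5e-05) and the ENO2 difference was -5.08 ± 0.43 (adjusted p = 0.000101). These 6 changes were called under every setting and with every library left out.

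ENO3 fell already at day 7 of neural induction, by 2.21 ± 0.32 on the log2 scale, and it was the only member called between srNMPs and progenitors (adjusted p = 0.0243). The groups did not overlap. The call ended with any of 5 single libraries left out (H1 RABC 0.0803, H1 RASS 0.0534, HUES9 RASS 0.0683, H1 passage 25 0.0789 and HUES9 passage 8 0.0762 as adjusted p) and with HUES9 alone (adjusted p = 0.217). ENO2 rose from progenitors to neurons by 1.63 ± 0.33 (adjusted p = 0.00854; 0.182 with HUES9 alone).

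As shares of all enolase FPKM, ENO1 held 90.3% to 95.5% in srNMPs, 51.8% to 66.9% in neurons and 48.1% and 38.4% in muscle. ENO2 held 41.7% ± 6.66 in neurons and 5.05% ± 1.79 in srNMPs (SD, n = 4 each, exact permutation p = 0.0286, adjusted 0.0571). ENO3 held 50.8% at day 40 and 60.5% at day 50 of muscle induction and at most 3.58% in any other library. ENO1 fell in neurons by 1.45 ± 0.36 on the log2 scale (adjusted p = 0.0139; 0.0616 under quantile normalization) and in muscle by 2.28 ± 0.47 (adjusted p = 0.00617). The general form therefore stayed the most abundant enolase in each of the neuron libraries, while ENO3 passed it in both muscle libraries.

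**Figure D4:**
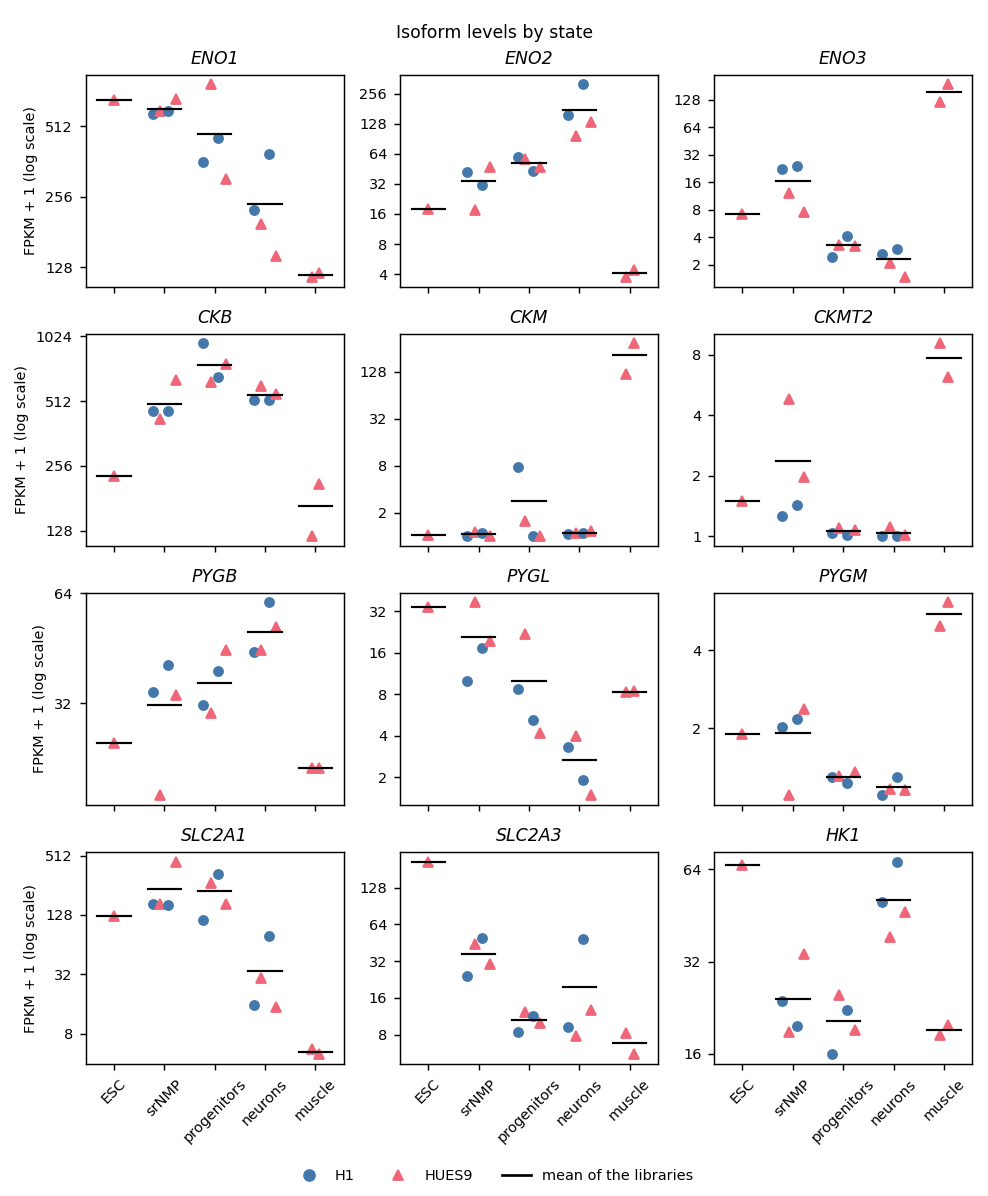
FPKM + 1 on a log scale for 12 genes by state, with 1 point per library (blue circles H1, red triangles HUES9) and a line at the mean. ENO2 is highest in neurons and lowest in muscle, ENO3 and CKM are highest in muscle, and SLC2A1 falls from srNMPs to neurons to muscle.

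PKM, pyruvate kinase, whose M1 and M2 splice forms cannot be separated at gene level, was at 195 FPKM in ESCs, 369 to 493 in srNMPs, 383 to 523 in progenitors, 164 to 250 in neurons and 221 and 287 in muscle. Neurons and muscle lay below every srNMP library, and the ESC library was among the lowest. PKM fell in neurons by 1.10 ± 0.15 on the log2 scale from srNMPs (adjusted p = 0.0013) and by 1.05 ± 0.15 from progenitors (adjusted p = 0.00257). The change in muscle was -0.79 ± 0.20 (adjusted p = 0.0141) and ended under equal totals (-0.47, adjusted p = 0.115), under quantile normalization (-0.44, adjusted p = 0.189) and without the day 40 (adjusted p = 0.104) or the HUES9 passage 25 library (adjusted p = 0.0507). PKM was higher in srNMPs than in ESCs by 1.15 ± 0.25 (adjusted p = 0.0228; 0.0672 without the HUES9 passage 25 library, 0.0981 with only these states and 0.111 with HUES9 alone).

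Lactate dehydrogenase interconverts pyruvate and lactate through LDHA and LDHB subunits. LDHB was at 633, 1088, 747 and 646 FPKM in srNMPs, 423 to 577 in progenitors, 263 to 320 in neurons and 188 and 215 in muscle, in steps without overlap. LDHB fell by 1.39 ± 0.19 on the log2 scale in neurons (adjusted p = 0.00114) and by 1.98 ± 0.24 in muscle (adjusted p = 0.000615). LDHA was at 238 to 319 FPKM in srNMPs, 54.2 to 328 in progenitors, 38.0 to 211 in neurons and 68.5 and 86.6 in muscle, and it was called in no comparison. LDHB held more than LDHA in all 15 libraries, with 58.2% to 88.6% of their sum.

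Export of lactate runs through SLC16A1, the general monocarboxylate carrier, and SLC16A3, the form of glycolytic cells. SLC16A1 was at 140 FPKM in ESCs, 48.9 to 71.1 in srNMPs, 14.9, 24.1, 19.2 and 19.0 in neurons and 11.3 and 10.9 in muscle. It fell by 1.58 ± 0.22 on the log2 scale in neurons (adjusted p = 0.00134) and by 2.42 ± 0.29 in muscle (adjusted p = 0.000555). SLC16A3 was at or below 7.88 FPKM in all libraries but the H1 ventral neurons, where it was at 19.7, and it was called in no comparison.

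Pyruvate dehydrogenase kinases hold back the entry of pyruvate into mitochondria. PDK1 was at 3.38 to 7.43 FPKM in srNMPs, 1.17 to 11.5 in progenitors, 1.68 to 10.1 in neurons and 2.40 and 2.76 in muscle, with no call. PDK4 was at most 0.00802 FPKM in srNMPs and at 0.193, 0.462, 4.03 and 1.45 in neurons, with a log2 change of 1.10 ± 0.24 (adjusted p = 0.00735; 0.0973 with HUES9 alone). GPD1, glycerol phosphate dehydrogenase, was at 0.281, 0.0298, 0.749 and 1.87 FPKM in neurons and at most 0.131 in srNMPs. Its groups overlapped, and the call (log2 change 0.61 ± 0.16, adjusted p = 0.0174) ended with any of 3 of the libraries left out (adjusted p 0.0583 to 0.0676). PDK4 and GPD1 entered the test only through neuron libraries at 1 FPKM or more, so their p-values are no support for a difference.

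Glycogen phosphorylase releases glucose units from glycogen and has a brain (PYGB), a liver (PYGL) and a muscle (PYGM) form. PYGB was at 33.3, 16.9, 39.7 and 32.7 FPKM in srNMPs, 43.2, 43.6, 59.4 and 50.8 in neurons and 20.3 in each muscle library. PYGL was at 8.98, 36.1, 16.3 and 18.5 FPKM in srNMPs, 2.34, 2.96, 0.898 and 0.483 in neurons and 7.29 and 7.42 in muscle. PYGM was at 0.105 to 1.38 FPKM in srNMPs, 0.101 to 0.295 in neurons and 3.96 and 5.13 in muscle.

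The liver form thus fell and the brain form rose from srNMPs to neurons, and these groups did not overlap for either. PYGL fell by 2.93 ± 0.40 on the log2 scale (adjusted p = 0.00119). PYGB rose by 0.72 ± 0.18 (adjusted p = 0.0137). This call ended without the HUES9 dorsal library (adjusted p = 0.052), with HUES9 alone (0.0795) and without the H1 ventral and HUES9 RABC libraries (0.0702). PYGM rose in muscle by 1.64 ± 0.23 from srNMPs (adjusted p = 0.00114) and was higher than in neurons by 2.28 ± 0.23 (adjusted p = 0.000242), yet it made up only 12.6% and 15.6% of phosphorylase FPKM in muscle, where PYGB held 64.3% and 61.8%. In neurons PYGB held 96.2% ± 2.63, against 60.1% ± 19.8 in srNMPs (SD, n = 4 each, exact permutation p = 0.0286, adjusted 0.0571). The HUES9 passage 8 library had the lowest PYGB share of the srNMPs, 31.8%. In progenitors PYGB already held 79.2% and 57.7% (RABC, H1 and HUES9) and 89.6% and 92.4% (RASS). Its level was not called different between neurons and progenitors (limma adjusted p = 0.076), and these groups overlapped.

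Of the genes that build glycogen, GYS1, muscle-type glycogen synthase, was at 20.7, 9.59, 18.5 and 16.2 FPKM in srNMPs, 11.6 to 15.1 in neurons and 33.7 and 40.2 in muscle. The muscle libraries lay above all 13 others. GYS1 was higher in muscle by 1.27 ± 0.27 than in srNMPs (adjusted p = 0.00743) and by 1.51 ± 0.27 than in neurons (adjusted p = 0.00398). GBE1, the branching enzyme, was at 5.80 to 14.3 FPKM in srNMPs and 4.74 and 3.56 in muscle, with a log2 change of -1.15 ± 0.33 (adjusted p = 0.0237), which ended without the day 50 library (adjusted p = 0.102), the HUES9 passage 25 library (0.0662) or the HUES9 passage 8 library (0.0542), and under equal totals (0.0796). PGM1, which links glucose 1-phosphate to glycolysis, was at 12.5 to 21.0 FPKM in srNMPs, 7.11 to 11.3 in neurons and 20.4 and 21.7 in muscle. Its calls, lower in neurons than srNMPs (log2 change -0.88 ± 0.27, adjusted p = 0.028) and higher in muscle than neurons (0.99 ± 0.34, adjusted p = 0.0493), ended with 7 of 8 and 5 of 6 single libraries left out (adjusted p 0.0527 to 0.0965 and 0.0648 to 0.164).

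Creatine kinases gave the strongest contrast of muscle with every other state. CKM, the muscle cytosolic form, was at 118 FPKM at day 40 and 296 at day 50 of muscle induction. It was listed at 0 to 0.124 FPKM in srNMPs, at 0.0559 to 0.154 in neurons and at 0.0389 in ESCs. In the progenitors it was at 6.61 in the H1 RABC library, 0.577 in the HUES9 RABC library and 0 in both RASS libraries. The log2 change was 7.65 ± 0.52 from srNMPs (adjusted p = 3.56e-05) and 7.59 ± 0.52 from neurons (adjusted p = 3.62e-05), and no fold is given against levels this close to 0. In the H1 RABC library, the skeletal muscle gene MYH3 was at 1.84 FPKM and MYOG at 0.131, against 1304 and 1952 FPKM of MYH3 in muscle.

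CKB, the brain form, was at 230 FPKM in ESCs, 460, 423, 461 and 641 in srNMPs, 624 to 948 in progenitors, 515, 602, 518 and 553 in neurons and 120 and 211 in muscle. Both muscle libraries lay below all others. CKB fell by 1.64 ± 0.23 on the log2 scale from srNMPs to muscle (adjusted p = 0.00125) and differed by -1.80 ± 0.23 from neurons (adjusted p = 0.000849), whereas neurons and srNMPs were not called different (log2 change 0.16 ± 0.18, adjusted p = 0.496). It was higher in srNMPs than in ESCs by 1.11 ± 0.29 (adjusted p = 0.0438), a call that ended without 3 of the 4 srNMP libraries (adjusted p 0.0546 to 0.111). CKM held 49.6% of the cytosolic creatine kinase FPKM at day 40 and 58.4% at day 50, so the brain form still made up close to the other part in both muscle cultures.

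CKMT2, the sarcomeric mitochondrial creatine kinase, was at 8.14 and 5.22 FPKM in muscle, 0.254, 3.84, 0.425 and 0.969 in srNMPs and at most 0.105 in neurons. It was higher in muscle than in neurons by 2.64 ± 0.41 on the log2 scale (adjusted p = 0.00197) and than in srNMPs by 1.66 ± 0.41 (adjusted p = 0.0133; 0.0743 without the day 40 library). It was lower in neurons than in srNMPs with a log2 change of -0.98 ± 0.32 (adjusted p = 0.0363), which ended with any of 6 of the 8 libraries left out (adjusted p 0.0552 to 0.117). AMPD1, the muscle AMP deaminase, was at 0.864 and 2.47 FPKM in muscle, was listed at 0 in all srNMPs and reached at most 0.0491 in neurons. Its log2 change from srNMPs was 1.34 ± 0.06 (adjusted p = 4.44e-06), which rests on srNMP libraries that are all listed at 0. AMPD1 entered the test only through the day 50 muscle library, so this p-value is no support for a difference.

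Promoter sequences are shown for 5 members called between muscle and srNMPs, chosen because they hold one of the motifs named here. Of these calls, that of AMPD1 is no support for a difference, and that of PGAM2 ended without the day 50 library. Each sequence is the 250 bases before the annotated start, from RefSeq on GRCh38.p14, read 5′ to 3′ on the gene's strand. Capitals mark CAGCTG, a form of the E-box that myogenic factors such as MYOD1 are known to bind, or a match to the MEF2 motif. CKM (chr19:45322876-45323125, minus strand), PGAM2 (chr7:44065568-44065817, minus strand) and CKMT2 (chr5:81233072-81233321, plus strand) hold CAGCTG, beginning 99, 223 and 106 bases before the start. AMPD1 (chr1:114695547-114695796, minus strand) and CKB (chr14:103522831-103523080, minus strand) hold a MEF2 match, 103 and 70 bases before it. LDHB, called lower in muscle than in srNMPs, also holds CAGCTG and is not shown.
CKM: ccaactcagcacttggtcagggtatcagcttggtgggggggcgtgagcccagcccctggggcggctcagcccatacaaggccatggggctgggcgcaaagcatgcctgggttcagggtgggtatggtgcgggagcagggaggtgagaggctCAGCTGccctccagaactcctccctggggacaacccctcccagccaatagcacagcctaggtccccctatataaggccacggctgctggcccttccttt
PGAM2: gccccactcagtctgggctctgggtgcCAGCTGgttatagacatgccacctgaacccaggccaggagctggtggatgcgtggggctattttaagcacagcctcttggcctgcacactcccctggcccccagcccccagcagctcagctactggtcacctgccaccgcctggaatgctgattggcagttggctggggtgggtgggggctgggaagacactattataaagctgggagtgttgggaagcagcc
CKMT2: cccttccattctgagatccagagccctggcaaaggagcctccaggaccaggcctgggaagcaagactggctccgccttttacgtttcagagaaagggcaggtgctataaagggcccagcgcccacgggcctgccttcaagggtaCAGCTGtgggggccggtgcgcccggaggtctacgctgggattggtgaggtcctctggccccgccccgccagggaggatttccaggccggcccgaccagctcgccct
AMPD1: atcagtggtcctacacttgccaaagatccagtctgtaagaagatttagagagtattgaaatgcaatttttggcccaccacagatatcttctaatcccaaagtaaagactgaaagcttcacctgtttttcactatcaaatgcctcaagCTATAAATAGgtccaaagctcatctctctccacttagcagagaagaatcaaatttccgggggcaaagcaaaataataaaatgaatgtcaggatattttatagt
CKB: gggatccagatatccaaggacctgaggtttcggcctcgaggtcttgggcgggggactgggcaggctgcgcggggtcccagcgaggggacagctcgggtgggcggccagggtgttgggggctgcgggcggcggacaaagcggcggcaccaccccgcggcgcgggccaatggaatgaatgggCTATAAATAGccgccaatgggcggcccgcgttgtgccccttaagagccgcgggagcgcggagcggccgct
CKB thus carried the same MEF2 letters as AMPD1, although its level was lowest in muscle. Sequences were matched for 32 of the 37 members, in 60 windows. CAGCTG was in 6 of these windows (10.0%) and in 14.0% of 35116 windows of all genes, and a MEF2 match in 2 (3.33%) and in 1.75%. Of the members called higher in muscle than in srNMPs, 6 had windows, and 3 of their 7 windows held CAGCTG, against 1 of 13 windows of members lower in muscle and 2 of 40 of members not called. The 6 include AMPD1 and PGAM2, with the limits given above, and the window of PGAM2 is 1 of the 3. The 3 windows of ENO3 and GYS1, both higher in muscle, held neither CAGCTG nor a MEF2 match. The sequence ACGTG or GCGTG, the core that hypoxia-inducible factors are known to bind, was in 30 of 60 member windows and in 43.2% of all windows. Both strands were searched, CAGCTG is one case of CANNTG (48.3% of member and 61.8% of all windows), and a match is a run of letters and not a measured site.

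From day 40 to day 50 of muscle induction, with 1 library each and so without a test, 28 of 37 members were higher and 9 lower, with a median log2 difference of 0.18 against 0.06 over all tested genes. The share of all genes that were higher at day 50 was not computed, so the count alone says little about the members. Among the muscle forms, CKM was 2.50 times as high at day 50, PGAM2 2.56 times, AMPD1 2.86 times, ENO3 1.55 times and PYGM 1.30 times. The brain form CKB was also higher, 1.76 times. SLC2A4 was 5.92 times as high, between levels under 1 FPKM, and CKMT2 0.642 times. The muscle markers MYOG, at 312 and 539 FPKM, and MYH3, at 1304 and 1952, were also higher at day 50, and the fibroblast gene COL1A1 was lower, at 8504 and 4700; their part in these differences was not tested.

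Several members differed between the cell lines within a group, and this touches results above. In the ventral neurons, 16 of 37 members were higher in the H1 than in the HUES9 library by a log2 difference over 1 and none lower, where 8.32% of all tested genes differed by that much in either direction. SLC16A3 was at 19.7 against 0.0465 FPKM, ALDOC at 79.7 against 7.66, PFKP at 59.5 against 7.33, HK2 at 25.2 against 3.07 and LDHA at 211 against 38.0. In the RABC progenitors the HUES9 library was the higher one: 11 members were over 1 and 1, CKM, was over 1 the other way (4.49% of all genes). There SLC16A3 was at 7.88 against 0.0875 FPKM, PDK1 at 11.5 against 1.17, LDHA at 328 against 89.7 and ALDOC at 53.5 against 14.4. In the other pairs 6 members passed that difference at passage 8 (11.8% of all genes), 6 at passage 25 (4.93%), 2 in RASS progenitors (3.03%) and 2 in dorsal neurons (6.41%).

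Several genes known to be induced by low oxygen, but outside glycolysis, differed in the same direction in these pairs. The 3 named here were chosen after their values were seen. VEGFA, a vessel growth factor, was at 67.7 FPKM in the H1 and 9.19 in the HUES9 ventral neurons, and at 24.9 in the HUES9 and 6.27 in the H1 RABC library. P4HA1, a collagen prolyl hydroxylase, was at 42.1 against 10.3 and at 26.1 against 8.02 in the same order, and BNIP3, a mitophagy receptor, at 55.7 against 23.7 and 53.9 against 10.0. The list they come from also holds HIF1A, EPAS1 and ARNT, which encode hypoxia-inducible factors themselves and were not picked as induced genes. Of its other genes, CA9 and NDRG1 were slightly lower in the HUES9 than in the H1 RABC library (log2 difference -0.08 and -0.10). Of its 16 tested genes, 14 were higher in the H1 ventral library and 12 in the HUES9 RABC library than in their partners. This was not confined to these pairs: 13 of 16 were higher in HUES9 at passage 25, and 11 of 16 in H1 at passage 8 and in the dorsal neurons. The median HUES9 minus H1 difference of this list was -0.91 in ventral neurons, 0.45 in RABC progenitors and 0.38 at passage 25, beside -0.05, 0 and 0 over all genes. The part of culture conditions in the members' levels was not tested, since the labels record none.

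**Figure D5:**
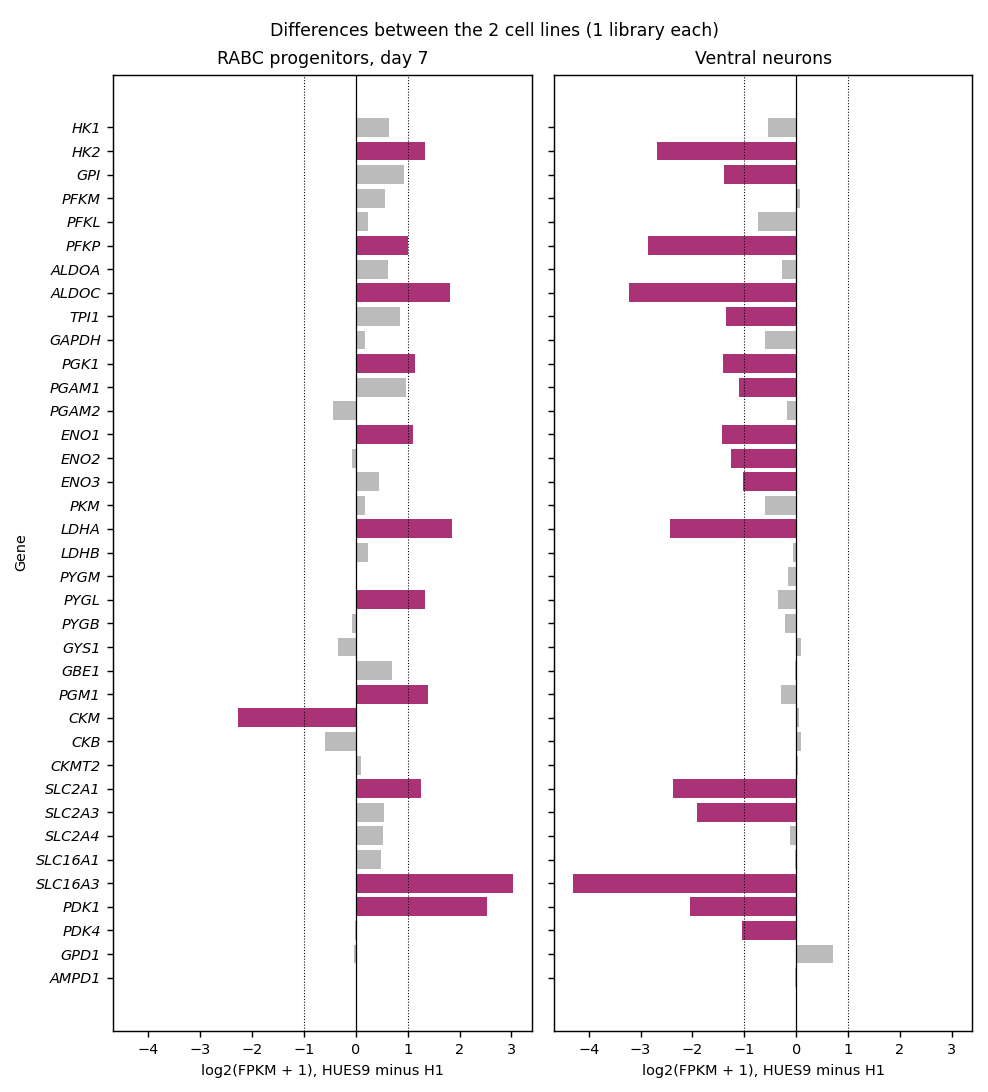
HUES9 minus H1 difference in log2(FPKM + 1) for each gene in RABC progenitors (left) and ventral neurons (right), 1 library per line; purple bars pass 1 in either direction (dotted lines). SLC16A3, PDK1, LDHA and ALDOC point right on the left and left on the right.

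For 7 members, neurons lay above progenitors in 1 line and below in the other, in both the dorsal minus RABC and the ventral minus RASS difference. The share of all genes that meet this rule was not computed, so the count alone says little about the members. PGK1 changed by 0.90 in H1 and by -0.51 in HUES9 on the log2 scale, PDK1 by 1.34 and -1.09, and LDHA by 0.85 and -1.07, none of which was called. These directions depend on the line labels. In the RASS pair, the HUES9 minus H1 differences over all genes correlated negatively with those of each of the other 5 pairs (r -0.53 to -0.17 across genes, which are not independent), and whether its labels are crossed was not tested. A test of the line difference itself in limma called 0% of 14129 genes and no member (smallest adjusted p over all genes 0.151), and 577 genes and 6 members had an unadjusted p under 0.05. Without the H1 ventral and HUES9 RABC libraries, 5 members in place of 12 were called from progenitors to neurons, some of them newly. Over all genes, 2004 in place of 5343 were called. The calls of ENO2 (adjusted p = 0.0924), HK1 (0.0515), SLC16A1 (0.103) and SLC2A4 (0.0522) ended. So did those of GAPDH (0.0683), LDHB (0.134), PDK4 (0.121), PGAM2 (0.224) and PYGL (0.0904). With HUES9 libraries alone, 1 of the 12 was left. From srNMPs to neurons, 19 in place of 20 were called without the H1 ventral and HUES9 RABC libraries, some of them newly. The calls of PYGB (adjusted p = 0.0702), GBE1 (0.0667), CKMT2 (0.0771) and PYGM (0.0823) ended.

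Other genes of these pathways, from 5 further lists, moved in part with the members. Of 25 tested glycolysis and glucose genes outside the members, 5 were higher and 9 lower in neurons than in srNMPs, and 4 and 11 in muscle; the shares called, 56% and 60%, were near the 52.1% and 49.8% of all genes. PDP1, a phosphatase that activates pyruvate dehydrogenase, was higher in neurons by 2.07 ± 0.17 (adjusted p = 0.000213), and DLAT, a subunit of that complex, lower, with a log2 change of -0.93 ± 0.12 (adjusted p = 0.00107). Of 17 tested glycogen genes, 3 rose and 5 fell in neurons and 5 rose and 4 fell in muscle, shares of 47.1% and 52.9%. PGM2L1, known from brain, rose in neurons by 2.95 ± 0.19 (28.7 against 2.74 FPKM, adjusted p = 0.000123), and PPP1R3C, which targets protein phosphatase 1 to glycogen, rose in muscle by 2.39 ± 0.41 (16.7 against 2.19 FPKM, adjusted p = 0.00299).

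Of 13 tested creatine and adenylate genes, 4 rose and 2 fell in neurons, and 4 rose and 4 fell in muscle, shares of 46.2% and 61.5% beside the same 52.1% and 49.8%. GATM, the first enzyme of creatine synthesis, rose in neurons by 1.77 ± 0.36 (adjusted p = 0.00601) and in muscle by 2.46 ± 0.47 (adjusted p = 0.00445). SLC6A8, the creatine carrier, fell in muscle by 1.86 ± 0.25 (7.55 against 33.7 FPKM, adjusted p = 0.000973), and AK1, the adenylate kinase of muscle and brain, rose there by 2.08 ± 0.26 (35.3 against 7.70 FPKM, adjusted p = 0.000718). Of 8 tested transport genes, none rose and 2 fell in neurons, and 1 rose and 4 fell in muscle. BSG, the partner protein of monocarboxylate carriers, fell by 1.11 ± 0.17 in neurons (adjusted p = 0.00191) and by 2.34 ± 0.22 in muscle (adjusted p = 0.000188), in the same direction as SLC16A1. The median log2 changes of these lists lay between -0.13 and 0.28 in neurons, beside 0.05 over all genes. In muscle they lay between -0.47 and 0.84, beside -0.22 over all genes, and the highest was that of the low-oxygen list.

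Some levels are less certain because of the genes around or like the member. In GENCODE release 29, exons of 7 members overlap those of another gene on the same strand: ALDOA, GPI, LDHB, PFKP, PGK1, SLC16A3 and SLC2A1. SLC2A3 has a near-identical copy, SLC2A14, PGAM1 resembles PGAM4, and GAPDH and others have processed pseudogenes, so fragments could be split between copies by the authors' counting.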

How the data were processed

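The authors deposited 1 table of FPKM values per gene for mRNA-seq libraries; the submitters' processing notes name Trimmomatic, HISAT2, HTSeq, Cufflinks and build hg18, with no versions or roles, and how genes sharing fragments were counted is not given in the sources used here. Of its columns of values, 1 matched no sample and was not used. Low values came out as whole multiples of 1 fragment (within 2%) for 86.3% of 23782 values, which gave relative depths of 0.954 to 1.05; read totals are not given, so no counting interval is printed. Genes at 1 FPKM or more in 1 library were kept (14129). limma 3.58.1 (R 4.3.3) was fitted to log2(FPKM + 1) with 9 group means, a cell line term and a mean-variance trend (5 residual degrees of freedom); the script was tested on simulated data. Fold changes on this scale understate the change of low genes. Groups share a cell line by number; HUES9 minus H1 differences correlated by -0.53 to 0.38 over 15 pairs of groups (median 0.10), and the RASS pair negatively with all others. Isoform shares were compared with exact permutation tests in scipy 1.17.1. All members are named, and of the 5 other lists called genes with the largest changes and a group mean of at least 5 FPKM. Alternatives covered the pseudocount, filter, scaling, cell line term and samples fitted, and each library left out. With HUES9 alone, and with only the compared states, the fit used 1 mean per state. Passages, inductions, neuron types and muscle days then served as replicates, so these p-values also carry the differences between them. Leaving out the H1 ventral and HUES9 RABC libraries together was added after seeing the data. Members and lists were chosen with earlier results of these data known.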

Additional observations from a re-analysis of the deposited data

Results flagged for a closer look

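In the srNMPs, 1 library stood apart from the other 3 for each of 3 members. PFKL was at 14.6 FPKM in the HUES9 passage 8 library and at 23.3 to 24.3 in the others. PKM was at 369 FPKM in the same library and at 486 to 493 in the others. SLC2A1 was at 443 FPKM in the HUES9 passage 25 library and at 161 to 164 in the others. These are 3 of 97 groups of values tested, and chance marks about 1 in 20.

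From progenitors to neurons, 7 members changed in opposite directions in H1 and HUES9, in both the dorsal minus RABC and the ventral minus RASS difference. GPI, PFKL, GBE1 and SLC2A3 had mean changes of opposite sign in the lines, but not in both differences. How many of all genes meet the rule was not computed. The difference between the lines (HUES9 minus H1, log2) was -3.26 for ALDOC, -3.51 for SLC16A3, -2.43 for PDK1, -1.91 for LDHA, -1.41 for PGK1, -0.84 for PGM1 and -0.79 for PGAM1. In limma the unadjusted p-values were 0.0232, 0.0464, 0.0256, 0.0856, 0.0168, 0.0738 and 0.13 in that order, and the adjusted p was 1 for each. These directions use the line labels of the RASS pair as given.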

How the results depend on the processing

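No called member reversed, and 31 of 74 calls were kept under every setting in which the gene was tested. These include both calls of AMPD1, which reached 1 FPKM in only 1 library and so was not tested in every setting. It was tested in 14 settings where CKB had 16 (muscle against srNMPs), and in 15 where CKB had 17 (muscle against neurons). Members called between srNMPs and ESCs (4) became 1 without a filter, 2 with equal totals, 1 with quantile normalization, 0 with only these states fitted, 1 with HUES9 alone, 7 with the line labels of the RASS pair exchanged (its line differences ran against those of the other pairs) and 1 to 5 with a library left out; leaving out the ESC library was not possible. Between progenitors and srNMPs (1) they became 2 with a pseudocount of 0.1, 2 with only these states, 0 with HUES9 alone, 2 without the H1 ventral and HUES9 RABC libraries and 0 to 7 with a library left out. Between neurons and progenitors (12) they became 1 with HUES9 alone, 5 without those 2 libraries and 6 to 14 with a library left out, and between muscle and neurons (16) 10 to 20. The counts against srNMPs were 14 to 22 in neurons and 16 to 20 in muscle with a library left out. Without the replicate block, members called became 7 (srNMPs and ESCs) and 2 (progenitors and srNMPs), and the other counts stayed within 1.5 times. Over all genes, calls between progenitors and srNMPs (484) were 191 without a filter, 772 without the block, 781 with 1 mean per state, 53 with HUES9 alone, 875 with the RASS lines exchanged, 137 without those 2 libraries and 45 to 2277 with a library left out. Calls between srNMPs and ESCs (2354) were 1160 with only these states, 1390 with HUES9 alone and 1504 without the HUES9 passage 25 library. Between neurons and progenitors (5343) they were 647 with HUES9 alone, 2004 without those 2 libraries, 3290 without H1 dorsal and 3532 without HUES9 RABC, and between neurons and srNMPs (7355) 3223 with HUES9 alone. The cause was not tested. Differences in isoform share with a library left out were 34.0 to 41.0 points for HK1, 34.6 to 39.7 for ENO2, 26.7 to 41.7 for PYGB and -21.8 to -13.5 for PFKM; whether a share passed was read from the p adjusted over 8 shares, a choice made after seeing the unadjusted values. In the fit with 9 group means, each muscle day is a group of 1 library. Muscle is therefore assumed to vary like the other groups, both with all libraries and with a muscle library left out.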
